A study of Mus musculus with 8 samples.

Results

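The comparison described here is that of pancreatic islets from wild-type mice that drank sodium tungstate with islets from wild-type mice that drank plain water. It takes 4 of the 8 arrays of the series, 2 treated and 2 untreated, and each gene is represented by 1 probe set, the one with the highest mean over all 8 arrays among those that name a single gene. All mice of this comparison were wild-type males with a C57Bl/6 background. From 10 to 13 weeks of age, over 21 days, the treated mice drank a sodium tungstate solution freely and the untreated mice drank distilled water alone. The strength of the solution is not settled: the design text gives 2 mg per ml and the sample labels give 2 mg per dl. The other 4 arrays are from Irs2-/- males of the same background, age and treatments. These mice lack the insulin receptor substrate Irs2 in every cell of the body. Their values are described for Irs2 itself and where the effect in wild type was set against theirs. Their arrays also enter the choice of probe set and the mean level that a gene had to reach. The spread per gene behind each standard error, interval and p-value is likewise shared by all 8 arrays. Total RNA of whole islets was labelled and hybridised to Affymetrix arrays, and values are log2 expression after RMA, the standard background correction, normalization and summary of such arrays. The labels do not say if an array stands for 1 animal or several, so the p-values speak only for the spread among these samples, which may be technical.

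Sodium tungstate is a salt of an oxyanion that resembles phosphate and vanadate. Given by mouth it is known to lower blood glucose in diabetic rodents while healthy animals keep a near normal glucose, and its described actions include inhibition of protein tyrosine phosphatases, activation of the ERK kinase pathway, more glycogen synthesis, and displacement of molybdenum from the enzymes that need it. Islets are mostly insulin-producing beta cells, with glucagon, somatostatin and pancreatic polypeptide cells beside them, and carry capillaries, connective tissue cells, resident macrophages and, after isolation, some exocrine tissue. In RNA from whole islets, fewer cells of a type and less RNA per cell cannot be told apart.

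The marker genes of the labelled genotype and tissue were checked first. Irs2 read 7.91 and 7.73 without and 7.89 and 7.61 with tungstate, a difference of -0.07 ± 0.16 (log2, standard error), while the Irs2-/- arrays read 4.54 and 4.89 without and 4.78 and 4.86 with tungstate. Ins2, the main insulin gene, read 14.75 and 14.75 without and 14.75 and 14.73 with tungstate. The 24 beta cell markers averaged 10.98 and 10.94 without and 11.02 and 10.92 with tungstate, so the arrays were close to level for the cells that make up most of an islet. The 8 markers of the other endocrine cells averaged between 11.46 and 11.73.

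Other cell types set the untreated arrays apart from each other before any treatment is considered. The 24 acinar markers, digestive enzymes and their regulators, averaged 8.16 and 11.19 on untreated replicates 1 and 2 and 9.57 and 9.55 on the treated arrays. All 24 were highest on untreated replicate 2, and 22 were lowest on untreated replicate 1. The 5 Reg genes, secreted proteins of stressed exocrine tissue, were likewise lowest on untreated replicate 1 and highest on untreated replicate 2, at 5.63 and 8.98, with 6.85 and 7.23 on the treated arrays. Untreated replicate 1 was instead the highest array for lymphocyte markers, at 7.15 against 5.37, 6.24 and 5.46, and for fibroblast and stellate cell markers, at 7.84 against 6.96, 6.50 and 6.62. Over all tested genes the root mean square difference between the untreated arrays was 0.353, wider than between the treated arrays (0.216) and than between untreated replicate 2 and either treated array (0.230 and 0.234). None of the 5 red blood cell markers with a probe set reached the level needed for a test.

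**Figure D1:**
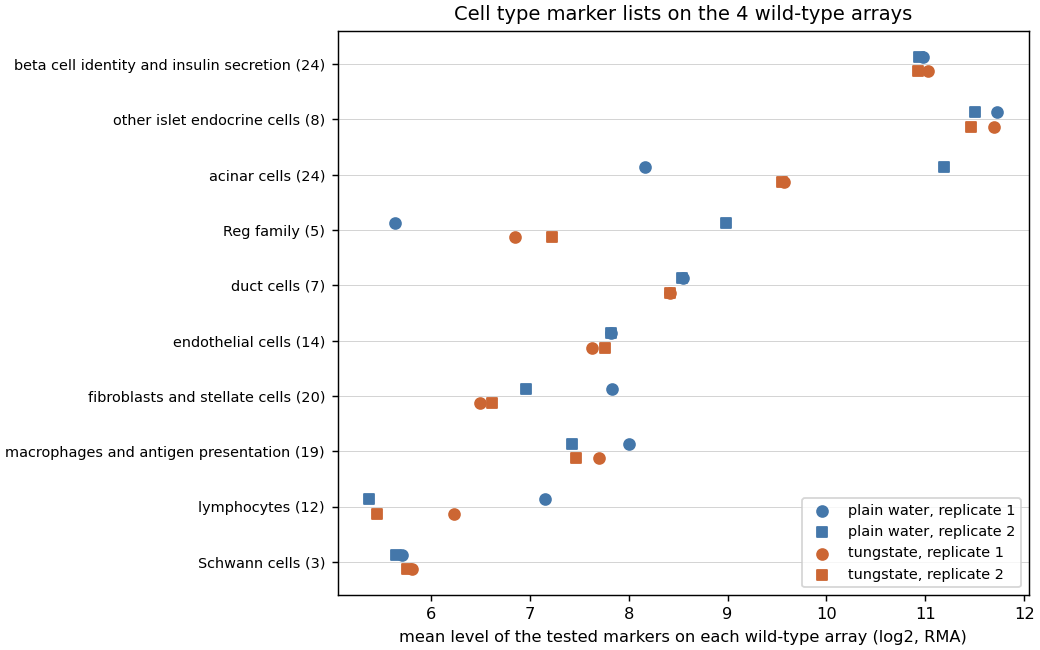
Mean log2 level of the tested markers of each cell type (number of markers in brackets) on the 4 wild-type arrays, blue for plain water and orange for tungstate, circles for replicate 1 and squares for replicate 2. Beta cell markers lie between 10.92 and 11.02 on every array, whereas acinar markers run from 8.16 to 11.19 between the untreated arrays alone.

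At the threshold of an adjusted p of 0.05, no gene passed in wild-type islets: limma called 0 of 13369 tested genes (0%), the lowest adjusted p was 0.796, and 364 genes (2.72%) had an unadjusted p under 0.05. The median difference over all genes was -0.03, and the median standard error of a difference was 0.14. For 12811 genes (95.8%) the unadjusted 95% interval of the difference stayed within 2-fold in either direction. Of the 364 genes, 293 read lower (2.19% of all tested) and 71 higher (0.531%) with tungstate, an 80.5% share of lower values that became 92% when each array was centred on its median, 68.9% after quantile normalization, 68.3% with no filter on low genes and 70.2% when the probe sets of a gene were averaged. Past an unadjusted p of 0.01 there were 43 genes (0.322%), 39 lower (0.292%) and 4 higher (0.0299%).

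The count of 0 changed when untreated replicate 2 was left out. Without untreated replicate 2, the array rich in acinar RNA, 9 genes were called, all lower: Scara5, Gas1, Abca8a, Ogn, Col3a1, Vim, Dcn, Gsn and Ccdc80. With the acinar level of each array as a covariate 9 were called as well, also all lower: Itih5, Lum, Abca8a, Col1a2, Antxr2, Vim, Col3a1, Col6a2 and Dpt. Several of these, such as Col3a1, Dcn, Ogn, Lum and Dpt, encode matrix proteins. Without untreated replicate 1, and without either treated array, 0 were called. Leaving out untreated replicate 2 also leaves untreated replicate 1 alone in its group, with a spread taken from the other groups. That array was the highest for 17 of the 20 fibroblast and stellate cell markers, so these calls do not show what removing acinar RNA alone would do. Arrays limit precision here by their number, and an exact two-sided permutation test of 2 arrays against 2 cannot give a p below 0.333.

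**Figure D2:**
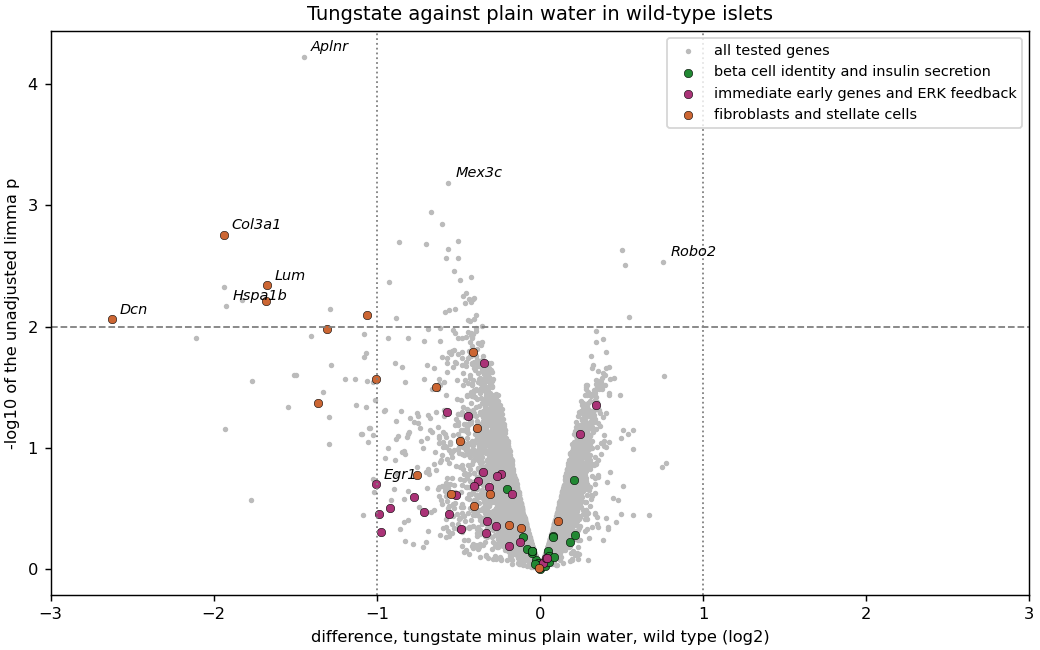
Each tested gene's difference in wild-type islets (x axis, log2, tungstate minus plain water) against the -log10 of its unadjusted limma p (y axis), with dotted lines at 2-fold and a dashed line at p 0.01. Fibroblast and stellate cell markers (orange) spread to the left as far as -2.62, beta cell markers (green) stay between -0.20 and 0.21, and no gene lies beyond the right dotted line.

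Genes of connective tissue cells included the widest difference. Of 20 tested markers of fibroblasts and stellate cells, the cells that lay down collagen around and within the pancreas, 19 read lower with tungstate (57.6% of all tested genes did), 12 of them with no overlap between the groups (21.9% of all tested genes read lower without overlap), and 10 had an unadjusted p under 0.05. None passed the adjusted threshold. The median of the list was -0.59, beside -0.03 over all genes, and its members ran from -2.62 to 0.11. Des, an intermediate filament of contractile cells, was the only one to read higher, by 0.11 ± 0.12.

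Dcn encodes decorin, a small proteoglycan that binds collagen fibrils. It read 11.14 and 8.41 without and 6.62 and 7.69 with tungstate, a difference of -2.62 ± 0.76 (limma, adjusted p = 1). Both treated arrays lay below both untreated ones. The untreated arrays, however, stood further apart from each other than untreated replicate 2 stood from either treated array. The standard error uses a spread shared with the Irs2-/- arrays, which for Dcn lay between 9.60 and 10.65. It is therefore not the scatter of the wild-type arrays alone, whose standard deviation was 1.93 without and 0.76 with tungstate.

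The leading collagen genes Col3a1, Col1a2 and Col6a2 were also highest on untreated replicate 1. Col3a1, a fibrillar collagen of soft tissue, read 10.04 and 8.55 without and 7.08 and 7.63 with tungstate, a difference of -1.94 ± 0.42 (limma, adjusted p = 1). Col1a2, a chain of type I collagen, read 9.38 and 8.02 without and 6.97 and 7.06 with tungstate, a difference of -1.68 ± 0.45. Col6a2, a chain of the microfibrillar collagen around cells, read 8.03 and 6.99 without and 6.39 and 6.52 with tungstate, a difference of -1.06 ± 0.30. In each, untreated replicate 2 came next and both treated arrays lay below it. Second probe sets for Col3a1, Col1a2 and Col6a2 differed by -1.11, -1.10 and -0.42, in the same direction. Other collagen genes did not all follow. On leaving out untreated replicate 1 or replicate 2, Col6a1 differed by -0.46 or -1.55 and Col1a1 by -0.17 or -0.61. In the same order Col5a1 differed by 0.27 or -0.28 and Col6a3 by -0.38 or 0.005. Lum, the collagen-binding proteoglycan lumican, read 7.11 and 5.67 without and 4.83 and 4.61 with tungstate, a difference of -1.67 ± 0.43, with the treated values under the level of 5.27 that a gene's mean had to reach. Vim, the intermediate filament vimentin of mesenchymal cells, read 9.27 and 7.83 without and 7.29 and 7.20 with tungstate. Pdgfra, the receptor for platelet-derived growth factor on fibroblasts, read 7.04 and 5.32 without and 4.67 and 4.97 with tungstate. The treated values of Pdgfra also lay under the level of 5.27, so the size of its difference cannot be read exactly.

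The size of these differences varied with the untreated array used. Untreated replicate 1 was the highest array for 17 of the 20 markers, and the treated arrays were the lowest for 18 of them, 13 on treated replicate 1 and 5 on treated replicate 2. Without untreated replicate 1 the median of the list was -0.31, Dcn differed by -1.26 and Col3a1 by -1.19. Without untreated replicate 2 the median was -0.95, with Dcn at -3.99 and Col3a1 at -2.68. Each of these fits rests on a lone untreated array. The part of the untreated arrays' differing acinar and lymphocyte levels in these differences was not tested beyond the fit with the acinar covariate, in which Dcn differed by -2.72 and Col3a1 by -1.99.

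Differences of 2-fold or more ran in one direction. Of the tested genes, 45 (0.337%) read 2-fold or more lower with tungstate and 0 read 2-fold or more higher. Untreated replicate 1 was the highest array for 40 of the 45 and untreated replicate 2 for the other 5. Members of the list of 20 fibroblast markers made up 8 of them, which leaves connective tissue genes outside that list uncounted. An unadjusted limma p under 0.05 was held by 31, beside 2.72% of all tested genes, though these genes were chosen by the size of their difference. Without untreated replicate 1, 47 genes read 2-fold lower and 15 higher, and only 10 of the 45 remained. Without untreated replicate 2, 173 read lower and 28 higher, with 43 of the 45 among them, and with the probe sets of each gene averaged 24 read lower and 0 higher.

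Several of the leading lower genes outside the fibroblast list are secreted or membrane proteins. Gdf10, a growth factor of the bone morphogenetic protein family, read 7.60 and 6.57 without and 5.08 and 5.22 with tungstate, a difference of -1.94 ± 0.50. Abca8a, a lipid transporter of the ABC family, read 7.89 and 6.07 without and 5.10 and 5.20 with tungstate, a difference of -1.83 ± 0.49. Aqp1, the water channel of capillary endothelium and red blood cells, read 6.44 and 5.56 without and 4.70 and 4.73 with tungstate, a difference of -1.29 ± 0.36. All 3 were highest on untreated replicate 1. Their treated values lay under the filter level of 5.27 and near the readings of the deleted Irs2 gene on the Irs2-/- arrays (4.54 to 4.89), so neither the size of these differences nor the closeness of the treated arrays can be read exactly.

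Aplnr had the smallest p in the comparison. It encodes the receptor for the peptides apelin and elabela, found mainly on endothelial cells. It read 6.23 and 6.41 without and 4.85 and 4.90 with tungstate, a difference of -1.45 ± 0.19 (limma, adjusted p = 0.796). The untreated arrays lay close together and above both treated arrays. The treated values lay under the filter level of 5.27, near the readings of the deleted Irs2 gene on the Irs2-/- arrays. The size of the difference and the narrow spread of the treated arrays therefore rest on a probe set near background. The difference was -1.54 without untreated replicate 1 and -1.36 without untreated replicate 2. A second probe set for Aplnr above the filter level differed by only -0.06, so the 2 probe sets disagree.

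General markers of endothelial cells had smaller differences than Aplnr. The 14 tested markers had a median difference of -0.12, 6 read lower without overlap and 0 higher (21.9% and 15.2% of all tested genes), and 13 had an unadjusted interval within 2-fold. Their mean was 7.82 on both untreated arrays and 7.62 and 7.76 on the treated ones. Tek, the receptor for angiopoietins, was the only one with an unadjusted p under 0.05, at 6.87 and 6.74 without and 6.06 and 6.43 with tungstate, a difference of -0.56 ± 0.18. Ccn2, a matrix-associated growth factor also known as CTGF, read 7.53 and 8.05 without and 6.76 and 6.91 with tungstate, a difference of -0.95 ± 0.41 (limma, adjusted p = 1).

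**Figure D3:**
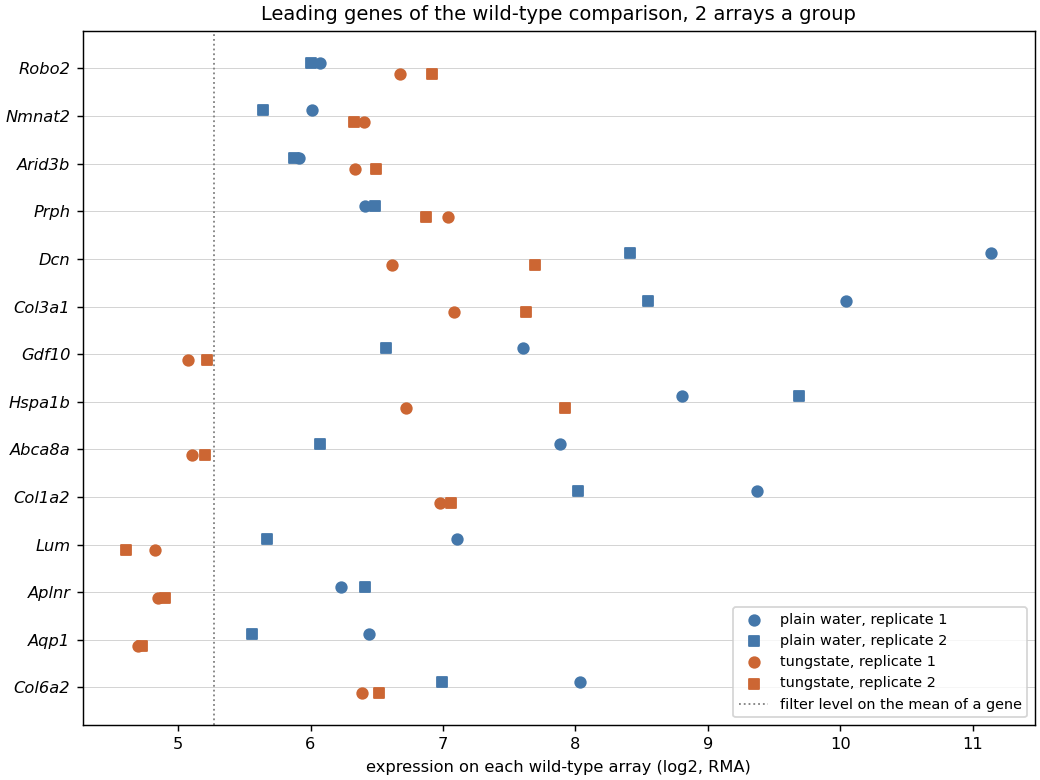
Log2 expression on each wild-type array of the genes with the widest differences among those at an unadjusted p under 0.01 whose groups do not overlap, 4 higher and 10 lower with tungstate (blue for plain water, orange for tungstate, circles for replicate 1, squares for replicate 2; dotted line, filter level of 5.27). Dcn spans 11.14 to 6.62 with wide gaps within the groups, while the treated values of Gdf10, Abca8a, Lum, Aplnr and Aqp1 lie left of the filter level.

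Inducible heat shock genes also read lower. Heat shock proteins are chaperones that refold damaged proteins, and the inducible Hsp70 genes Hspa1a and Hspa1b are switched on by proteotoxic stress. Hspa1b read 8.81 and 9.69 without and 6.72 and 7.92 with tungstate, a difference of -1.93 ± 0.53 (limma, adjusted p = 1), and its 3 probe sets differed by -2.39 to -1.93. Hspa1a read 7.59 and 8.31 without and 6.01 and 6.88 with tungstate, a difference of -1.51 ± 0.55. Cryab, the small heat shock protein alpha-B crystallin, read 6.54 and 6.22 without and 5.28 and 5.35 with tungstate, a difference of -1.06 ± 0.40. Its treated values lay just above the filter level of 5.27. In all 3 both treated arrays lay below both untreated arrays, and for the Hsp70 pair untreated replicate 2, not replicate 1, was the highest array and treated replicate 1 the lowest.

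The rest of the heat shock list did not share these sizes. Of all 15 tested members, only Hspa1b, Hspa1a and Cryab had an unadjusted limma p under 0.05. Over the whole list, those 3 included, 7 read lower and 2 higher without overlap (21.9% and 15.2% of all tested genes). The median of the whole list was -0.15. Hsp90aa1, the inducible Hsp90, read 12.62 and 12.49 without and 12.22 and 12.35 with tungstate, a difference of -0.27 ± 0.17. Bag3 and Dnajb1, co-chaperones that are induced along with Hsp70, read higher without overlap, by 0.35 ± 0.37 and 0.16 ± 0.20, though a second probe set for Dnajb1 differed by -0.19. Without treated replicate 1 the difference of Hspa1b was -1.33, and without treated replicate 2 it was -2.53.

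Hspa1a and Hspa1b are near-identical copies, so the signal of a probe set cannot be assigned to one of them with certainty. Their promoters, 250 bases before to 50 after the annotated start on the minus strand of mouse assembly GRCm38.p6 from RefSeq, are shown because the copies read lower together. Hspa1b lies at chr17:34959189-34959488 and Hspa1a at chr17:34972107-34972406. Capitals mark the heat shock element letters GAANNTTC, searched with TTCNNGAA, each of which reads the same on both strands.
Hspa1b: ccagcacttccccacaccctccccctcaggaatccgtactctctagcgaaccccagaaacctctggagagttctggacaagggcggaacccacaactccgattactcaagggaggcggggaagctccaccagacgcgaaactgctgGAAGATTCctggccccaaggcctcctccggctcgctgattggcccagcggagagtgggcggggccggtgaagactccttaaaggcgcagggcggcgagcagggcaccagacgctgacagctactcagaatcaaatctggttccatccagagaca
Hspa1a: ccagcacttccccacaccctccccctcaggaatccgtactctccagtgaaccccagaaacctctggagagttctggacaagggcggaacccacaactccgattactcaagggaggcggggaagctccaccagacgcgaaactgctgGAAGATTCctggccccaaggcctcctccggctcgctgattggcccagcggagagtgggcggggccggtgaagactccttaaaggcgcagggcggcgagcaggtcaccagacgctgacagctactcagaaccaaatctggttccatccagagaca
The sequences share 296 of 300 bases, and each holds 1 match, which begins 104 bases before the start. Such a match stood in 4946 of 32851 mouse promoters of the same length (15.1%), and it is a description of the letters only.

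The promoter of Col1a2, at chr6:4505368-4505667 on the plus strand of the same assembly, is shown as that of a leading collagen gene. Capitals mark the CCAAT box, searched as CCAAT and, for the other strand, ATTGG.
Col1a2: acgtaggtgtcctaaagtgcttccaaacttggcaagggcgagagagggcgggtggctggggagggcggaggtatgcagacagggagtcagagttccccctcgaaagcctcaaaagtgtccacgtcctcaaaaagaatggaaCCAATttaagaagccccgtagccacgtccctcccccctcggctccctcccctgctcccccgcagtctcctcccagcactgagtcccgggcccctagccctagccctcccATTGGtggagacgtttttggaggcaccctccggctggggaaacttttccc
It holds 2 matches, the first 109 bases before the annotated start and the last at the start itself. The promoter of Col3a1, at chr1:45311288-45311587, holds 0 in this window, and 12289 of 32851 promoters (37.4%) hold at least 1.

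Fewer genes stood out as higher with tungstate, and none was 2-fold higher. Robo2, an axon guidance receptor for Slit proteins that is also expressed in islet endocrine cells, read 6.07 and 6.00 without and 6.67 and 6.92 with tungstate, a difference of 0.76 ± 0.18 or 1.69-fold higher (limma, adjusted p = 1). Its untreated arrays lay close together, and both treated arrays lay above them. Nmnat2, an enzyme of NAD synthesis that protects axons, read 6.01 and 5.64 without and 6.40 and 6.33 with tungstate, a difference of 0.54 ± 0.16. Arid3b, a DNA-binding protein, read 5.91 and 5.87 without and 6.33 and 6.49 with tungstate, a difference of 0.52 ± 0.12. Prph, the neuronal intermediate filament peripherin, read 6.41 and 6.49 without and 7.04 and 6.87 with tungstate, a difference of 0.50 ± 0.11, but only 1 of its 4 probe sets above the filter level had this direction. Markers of Schwann cells, which ensheath the nerve fibres of islets, had a median of 0.15 over 3 tested members, with a mean of 5.70 and 5.64 without and 5.81 and 5.76 with tungstate.

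Beta cell genes were close to level. Of 24 tested genes of beta cell identity and insulin secretion, 0 were called by limma, 0 had an unadjusted p under 0.05, the median difference was 0.00, and all 24 had an unadjusted 95% interval within 2-fold, beside 95.8% of all tested genes. The members ran from -0.20 to 0.21, with 3 higher and 4 lower without overlap, both shares under the 15.2% and 21.9% of all tested genes.

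Among the transcription factors, Pdx1 read 10.10 and 10.17 without and 10.05 and 10.01 with tungstate, a difference of -0.10 ± 0.16 with a 95% interval of -0.47 to 0.27. Nkx6-1 differed by 0.05 ± 0.19, and Neurod1, a factor needed for insulin gene transcription, by -0.20 ± 0.15. Of the genes that mark mature beta cells, the glucose transporter Slc2a2 read 13.24 and 12.97 without and 13.26 and 13.00 with tungstate, a difference of 0.03 ± 0.36, and the hormone Ucn3 read 11.82 and 11.78 without and 11.81 and 11.97 with tungstate, a difference of 0.08 ± 0.32. The groups overlapped for both. Ins2 differed by -0.01 ± 0.10.

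The other islet hormones were close to level as well. Glucagon (Gcg) differed by -0.06 ± 0.12, somatostatin (Sst) by 0.02 ± 0.13 and pancreatic polypeptide (Ppy) by -0.01 ± 0.12. Genes of the secretory granule and of exocytosis had a median of 0.02 over 23 tested members, all 23 within 2-fold. Txnip, a glucose-responsive inhibitor of thioredoxin, differed by -0.16 ± 0.30 with a 95% interval of -0.84 to 0.53.

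Immediate early genes and feedback inhibitors of the ERK pathway, the kinase cascade that tungstate is described to activate, mostly read lower, above all on treated replicate 2. Of 29 tested members, 24 read lower (57.6% among all genes), 15 of them without overlap (21.9% among all genes). Only 2 read higher without overlap (15.2% among all genes), and the median was -0.34. Treated replicate 2 was the lowest array for 21 of the 29. The list averaged 7.96 and 7.77 without and 7.66 and 7.31 with tungstate. Only Spry4 and Etv4 had an unadjusted limma p under 0.05, and 0 were called. Spry4, a feedback inhibitor of receptor tyrosine kinases, read 6.07 and 6.22 without and 5.75 and 5.85 with tungstate, a difference of -0.34 ± 0.12. Etv4, a transcription factor downstream of ERK, ran the other way, at 6.09 and 6.25 without and 6.42 and 6.60 with tungstate, a difference of 0.34 ± 0.14.

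The larger differences in this list had wide errors. Egr1, a transcription factor induced within minutes of stimulation, read 11.46 and 11.74 without and 11.09 and 10.10 with tungstate, a difference of -1.01 ± 0.72 with a 95% interval of -2.67 to 0.65. Fos, a subunit of AP-1, read 12.31 and 11.86 without and 11.83 and 11.22 with tungstate, a difference of -0.56 ± 0.57. Dusp6, the phosphatase that switches ERK off, read 8.34 and 8.26 without and 8.02 and 7.70 with tungstate, a difference of -0.44 ± 0.20. Treated replicate 2 was the lowest array for all 3, and without it the median of the list was -0.20 and the difference of Egr1 -0.51, while without treated replicate 1 they were -0.52 and -1.50. Targets of NF-kB and cytokine genes had a median of -0.27 over 17 tested members, 10 lower and 2 higher without overlap (21.9% and 15.2% of all tested genes) and 0 with an unadjusted p under 0.05. Nfkbia, the inhibitor that NF-kB itself induces, read 11.22 and 11.72 without and 11.02 and 10.29 with tungstate, again lowest on treated replicate 2.

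**Figure D4:**
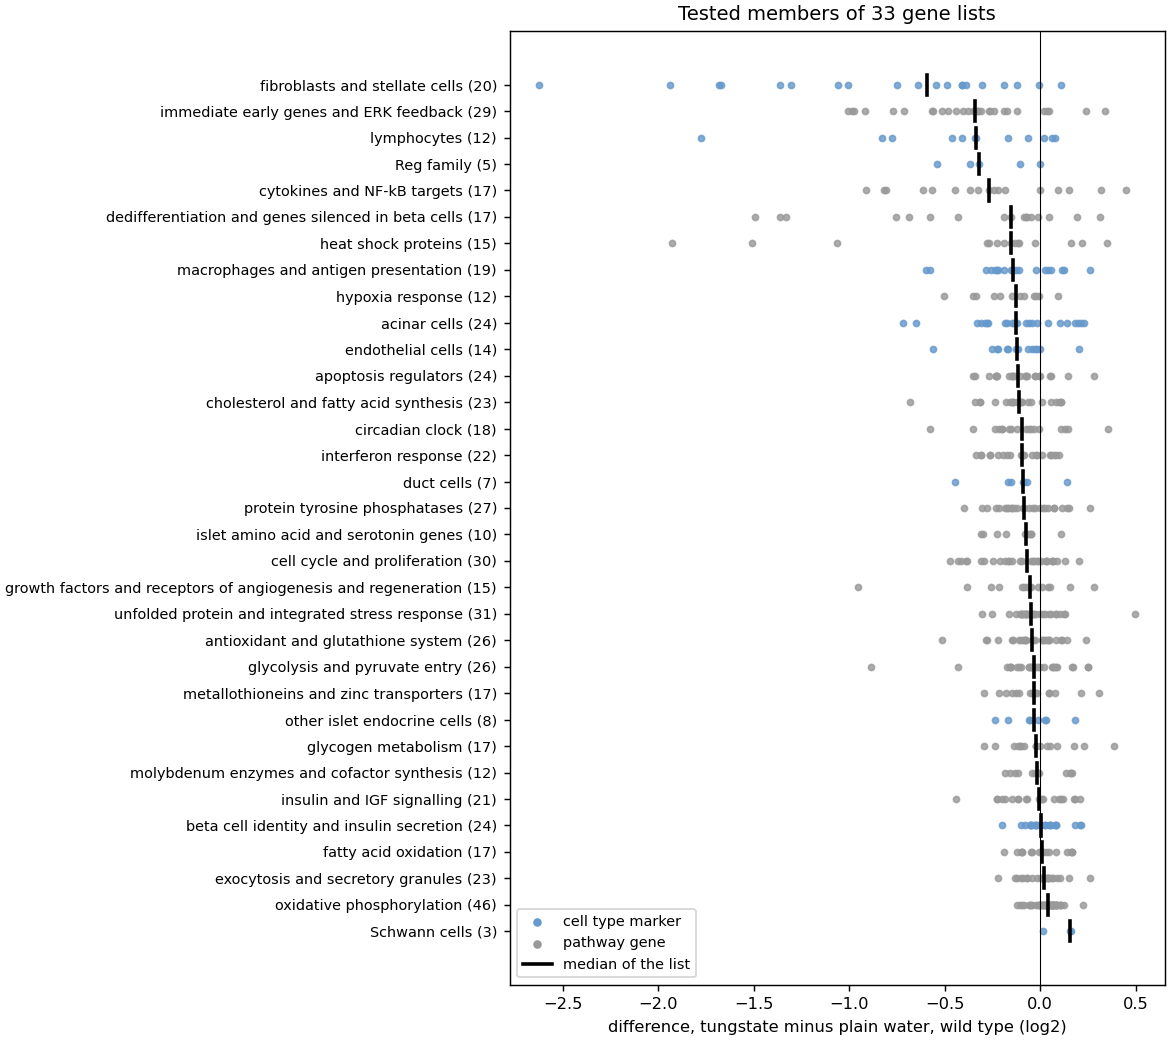
Differences in wild-type islets (log2, tungstate minus plain water) of the tested members of 33 gene lists, one row a list with its number of tested members, ordered by the median (black bar); cell type markers are blue and pathway genes grey. The fibroblast list has the lowest median, -0.59, followed by the immediate early genes at -0.34, and most other medians lie close to 0.

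The molecules on which tungstate is described to act differed little at the RNA level. All 12 tested molybdenum enzymes and genes of their cofactor had a 95% interval within 2-fold, with a median of -0.02, 2 higher and 1 lower without overlap (15.2% and 21.9% of all tested genes). Xdh, the molybdenum enzyme xanthine dehydrogenase, read 5.78 and 5.19 without and 5.43 and 5.31 with tungstate, and Aox1, aldehyde oxidase, read 7.45 and 7.12 without and 7.46 and 7.10 with tungstate. The groups overlapped for both, and the differences were -0.11 ± 0.21 and -0.01 ± 0.29. Gphn, gephyrin, which inserts molybdenum into the cofactor, differed by -0.18 ± 0.13.

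Protein tyrosine phosphatases had a median of -0.09 over 27 tested genes, 26 of them with an interval within 2-fold and 0 with an unadjusted p under 0.05. Ptpn1, PTP1B, which dephosphorylates the insulin receptor, read 9.55 and 9.29 without and 9.51 and 9.64 with tungstate, a difference of 0.15 ± 0.19. Ptpn2, its closest relative, read 8.82 and 8.76 without and 8.69 and 8.43 with tungstate, a difference of -0.23 ± 0.12. These are levels of RNA and carry no measure of enzyme activity.

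Glycogen genes had a median of -0.02 over 17 tested members, all within 2-fold. Epm2a, the glycogen phosphatase laforin, read 6.24 and 6.08 without and 6.44 and 6.65 with tungstate, a difference of 0.39 ± 0.12 (limma, adjusted p = 1). It was the only member with an unadjusted p under 0.05. Gys1, glycogen synthase, read 6.57 and 6.69 without and 6.78 and 6.84 with tungstate, a difference of 0.18 ± 0.12. Metallothioneins and zinc transporters, the usual genes of a metal response, had a median of -0.03 over 17 members, all within 2-fold. Mt1 read 12.96 and 12.43 without and 12.43 and 12.88 with tungstate, a difference of -0.03 ± 0.20, and Mt2 differed by -0.05 ± 0.25.

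Genes of insulin and IGF signalling had a median of -0.01 over 21 tested members, with 5 lower and 2 higher without overlap, near or under the 21.9% and 15.2% of all tested genes, and 0 at an unadjusted p under 0.05. Insr, the insulin receptor, read 8.58 and 8.33 without and 8.18 and 8.27 with tungstate, a difference of -0.23 ± 0.13. The cell cycle list had a median of -0.07 over 30 members, and its only member at an unadjusted p under 0.05 was Cdkn1b, the inhibitor p27, at -0.29 ± 0.12.

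Metabolic genes held a few lower values among many level ones. Pdk4, the kinase that shuts pyruvate dehydrogenase, read 7.65 and 7.18 without and 6.76 and 6.30 with tungstate, a difference of -0.89 ± 0.25 (limma, adjusted p = 1). It was the only one of 26 glycolysis and pyruvate genes at an unadjusted p under 0.05. Slc2a1, the basal glucose transporter and a hypoxia target, read 8.38 and 8.53 without and 8.10 and 7.81 with tungstate, a difference of -0.50 ± 0.17, while its 3 probe sets ran from -0.55 to -0.05. Of 23 genes of cholesterol and fatty acid synthesis, 11 read lower and 3 higher without overlap (21.9% and 15.2% of all tested genes), with a median of -0.11, and Scd2, a fatty acid desaturase, and Idi1, an isoprenoid isomerase, had an unadjusted p under 0.05 at -0.32 ± 0.11 and -0.34 ± 0.15. Genes of oxidative phosphorylation leaned the other way, with a median of 0.04 over 46 members, 12 higher (15.2% among all genes) and 1 lower without overlap, 0 at an unadjusted p under 0.05 and all 46 within 2-fold.

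Stress and death pathways had medians near 0, with more lower than higher values. The unfolded protein and integrated stress response list had a median of -0.05 over 31 members and the antioxidant list -0.04 over 26. Apoptosis regulators had -0.12 over 24 and the interferon response -0.09 over 22. In the same order 4, 9, 7 and 4 members read lower and 0, 3, 2 and 1 higher without overlap (21.9% and 15.2% of all tested genes). In each list limma called 0 genes, with 0 at an unadjusted p under 0.05. The list of genes that are silenced in mature beta cells had a median of -0.16 over 17 members and 3 at an unadjusted p under 0.05, all lower: Cxcl12, Mgst1 and Pdgfra, at -1.50, -1.33 and -1.36. Cxcl12, a chemokine, read 7.39 and 5.83 without and 5.23 and 5.00 with tungstate, highest on untreated replicate 1. Its treated values lay under the filter level of 5.27, and its 3 probe sets above that level by mean ran from -1.50 to 0.18. Pdgfra also stands in the fibroblast list, and the part of connective tissue cells in these values was not tested.

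The same comparison was made in islets of Irs2-/- mice with as many arrays. There limma called 66 genes (0.494%), 63 lower (0.471%) and 3 higher (0.0224%). The effect itself differed between the genotypes for 3 genes (0.0224% of 13369) at an adjusted p under 0.05, with 862 (6.45%) at an unadjusted p under 0.05. In all 3 the wild-type arrays were level and low while the Irs2-/- arrays started high and fell with tungstate.

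Gast, the hormone gastrin, read 4.53 and 4.69 without and 4.60 and 4.72 with tungstate in wild type and 10.00 and 10.26 without and 7.85 and 7.76 with tungstate in Irs2-/- islets. The effect in wild type exceeded that in Irs2-/- by 2.37 ± 0.19 (limma, adjusted p = 0.021), and all 4 wild-type values lay under the filter level of 5.27. Nmb, the peptide neuromedin B, read 5.66 and 5.37 without and 5.74 and 5.64 with tungstate in wild type and 7.54 and 7.75 without and 5.71 and 5.75 with tungstate in Irs2-/- islets, a difference of effects of 2.09 ± 0.20 (limma, adjusted p = 0.0263). Mfap3l, a membrane glycoprotein, read 5.68 and 5.52 without and 5.60 and 5.73 with tungstate in wild type and 8.09 and 8.01 without and 6.21 and 6.00 with tungstate in Irs2-/- islets, a difference of effects of 2.01 ± 0.18 (limma, adjusted p = 0.0263). For each of these genes the wild-type groups overlapped. Leaving out any 1 of the 4 wild-type arrays, or untreated replicate 2 of Irs2-/-, brought the number of calls to 0, and leaving out 1 of the other Irs2-/- arrays brought it to between 5 and 12.

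The leading genes of wild type were also read in Irs2-/- islets, where the differences rest on other arrays. The p-values there use the same spread per gene as those of wild type. A call there is therefore not independent of how these genes were chosen. Of the 39 genes that read lower at an unadjusted p under 0.01, 24 (61.5%) also read lower in Irs2-/- islets, where 52.0% of all tested genes did, and 0 were called there. All 4 higher genes read higher there, but Nmnat2 by 0.01 and Arid3b by 0.15, both with overlapping groups, and Prph by 0.20. Only Robo2 was called, beside 0.0224% of all tested genes called higher there.

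Robo2 read 4.69 and 4.83 without and 6.31 and 5.81 with tungstate in Irs2-/- islets, a rise of 1.30 (limma, adjusted p = 0.0328), beside 0.76 in wild type. Its untreated Irs2-/- values lay under the filter level of 5.27, near the readings of the deleted Irs2 gene on those arrays (4.54 to 4.89). Neither the size of this rise nor the closeness of the untreated Irs2-/- arrays can therefore be read exactly. Aplnr read 7.38 and 7.50 without and 6.00 and 6.58 with tungstate, a difference of -1.15 (limma, adjusted p = 0.0544), beside -1.45 in wild type. The effects on neither gene differed between genotypes at the threshold (Robo2 -0.54 ± 0.25, limma, adjusted p = 0.789; Aplnr -0.30 ± 0.26, limma, adjusted p = 0.903). Phlda1, a cytoplasmic and nuclear adaptor induced by growth factors, differed by -0.60 ± 0.13 in wild type and -0.63 in Irs2-/- islets, and Steap4, a metalloreductase that handles iron and copper, by -0.86 ± 0.19 and -0.67. A second probe set for Steap4 differed by only -0.03 in wild type.

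For the fibroblast and heat shock genes no difference between the genotypes passed the threshold. The fibroblast list had a median of -0.52 in Irs2-/- islets, beside -0.59 in wild type, and Dcn differed by -0.69, Col3a1 by -0.67, Gdf10 by 0.02 and Abca8a by 0.17. Hspa1b differed by -0.28, and the difference of effects was -1.64 ± 0.75 (limma, adjusted p = 0.789). The immediate early list had a median of -0.07 in Irs2-/- islets, beside -0.34. Markers of macrophages and antigen presentation had a median of -1.31 there with 6 of 19 called lower (0.471% of all tested genes), beside -0.14 and 0 called in wild type, though none of these 19 was among the 3 genes whose effect differed at the threshold.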

How the data were processed

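Total RNA of mouse islets was biotin-labelled and hybridised to Affymetrix arrays, 2 for each of 4 groups. The values deposited by the authors are log2 expression per probe set, made with RMA in the affy package under R 2.7.0 per the submitters' processing notes; array files were not used here, and no source used here names a batch or scan date. The platform annotation gives a single gene for 34945 of 45037 probe sets (controls, 64, aside), several for 932 and none for 9160, and a RefSeq table held the gene numbers of 34741 of the first kind. With the brightest probe set by mean taken for each gene, 18193 genes were left, of which 4824 with a mean below the 40th percentile (5.27) were not tested.

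All 8 arrays were fitted with 4 group means by limma 3.58.1 under R 4.3.3 (files read with data.table, version 1.17.8), where residual degrees of freedom were 4 and prior ones 3.89; Benjamini-Hochberg adjustment ran over all 13369 tested genes, with a threshold of 0.05. Standard errors and 95% intervals are from this fit. The code was tested on simulated data. Named genes were Irs2, up to 10 in each direction by size at an adjusted p under 0.05, filled with genes at an unadjusted p under 0.01 whose groups do not overlap, the 4 smallest p of each of 34 lists, up to 5 in each direction for the difference between genotypes, and fixed genes. Des, Bag3, Dnajb1, Vim, Phlda1, Steap4 and the genes called without 1 array or with a covariate were named after their values were seen where that rule does not give them. Col1a1, Col5a1, Col6a1 and Col6a3 were likewise named after their values were seen. The members and lists were chosen with earlier results of these data known. Alternatives covered the filter, variance moderation, the arrays fitted, array weights, centring, quantile normalization, the probe set rule, an acinar covariate, a replicate block, thresholds and leaving out each array.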

Additional observations from a re-analysis of the deposited data

Results flagged for a closer look

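For 3 genes the effect of tungstate differed between the genotypes in limma's test of the difference. The effect on Gast in wild type minus that in Irs2-/- was 2.37 (log2). All 4 wild-type values of Gast lay under the filter level of 5.27, and the gene passed the filter through the Irs2-/- arrays, so its wild-type difference has little meaning. The corresponding difference of effects was 2.09 for Nmb and 2.01 for Mfap3l. In wild type these genes differed by 0.05, 0.17 and 0.06, and in Irs2-/- islets by -2.32, -1.92 and -1.94.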

How the results depend on the processing

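The number of genes called in wild type was 0 in the fit reported, 9 with the acinar level as a covariate, 0 to 9 on leaving out 1 array (9 without untreated replicate 2) and 364 at an unadjusted p under 0.05. It was 0 under every other alternative run. Members of the lists called numbered 0, 5 with the acinar covariate and 0 to 3 on leaving out 1 array. Genes whose effect differed between genotypes numbered 3 in the fit reported, 0 to 12 on leaving out 1 array, 13 at an adjusted p under 0.1, 862 at an unadjusted p under 0.05, and 2 to 4 under the other alternatives. Over 14 alternatives the lowest adjusted p in wild type ran from 0.00409 to 1. With replicate numbers as a block (replicate block), 0 genes were called in wild type and 3 for the difference between genotypes; no label says that a number marks a shared animal, litter or day, and the correlation of deviations between same-numbered wild-type arrays, 0.22, is 1 value from 2 pairs and settles nothing about pairing. The number at an unadjusted p under 0.05 was 666 with the wild-type arrays alone and 742 with array weights. The fibroblast median ran from -0.95 to -0.31 and that of the immediate early genes from -0.52 to -0.20, both below 0 throughout, while the beta cell median ran from -0.05 to 0.07. Single genes were followed only for the leading ones, the widest differences at an unadjusted p under 0.01 whose groups do not overlap. Among their values 8 became called under an alternative, 185 kept their side of the threshold and 0 reversed. Other named genes were not in this count, and not all kept their sign. Mt1 differed by 0.23 without untreated replicate 1 and by -0.30 without untreated replicate 2, and Mt2 by 0.28 and -0.39. A fit that leaves out 1 array assumes that the lone array of its group varies like the other groups. The number of arrays, 2 a group, limits every value.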

Other observations

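Of 18 tested genes of the circadian clock, 4 read lower and 0 higher with tungstate without overlap (21.9% and 15.2% of all tested genes), the median was -0.10, and 0 had an unadjusted limma p under 0.05. Cry1, a repressor of the clock, read 6.98 and 7.19 without and 6.78 and 6.23 with tungstate. Arntl, the activator also known as Bmal1, read 7.25 and 7.86 against 7.20 and 7.20. Its partner Clock read 8.90 and 8.91 against 8.76 and 8.65.

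Genes of fatty acid oxidation had a median of 0.01 over 17 tested members, duct cell markers had the same mean of 8.42 on both treated arrays beside 8.55 and 8.54 on the untreated ones, and hypoxia genes had a median of -0.13 over 12. Ighm, the heavy chain of immunoglobulin M and a member of the lymphocyte list, read 12.68 on untreated replicate 1 and 7.26 on untreated replicate 2, beside 8.23 and 8.15 on the treated arrays.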
